A study of Mus musculus with 2 samples.

Results

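The genes described here are 10 genes of the junctions between endothelial cells, measured cell by cell in the vessel lining and the stroma of mouse bone marrow. They were taken by symbol from the deposited gene table and make up 10 of its 27999 genes. They fall into 4 roles: the cadherin Cdh5 and the adhesion molecule Pecam1, the tight junction membrane proteins Cldn5 and Ocln, the junctional adhesion molecule (JAM) family F11r, Jam2, Jam3 and Esam, and the scaffolds Tjp1 and Cgnl1. All 10 symbols were found, and 9 of them had enough counts to be compared. Ocln had 3 counts in all cells.

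The cells came from 2 droplet libraries of unique molecular identifiers (UMIs, each a counted RNA molecule), 1 library for each group and thus no replicate. Both groups came from mice of the strain C57Bl/6JCrl aged 3 to 4 months and of the genotype LepR-Cre;LSL-tdTomato. In these mice Cre, made where the leptin receptor gene is or was active, switches on the red protein tdTomato in those cells and their descendants. The LepR_tdT library held tdTomato-positive marrow cells and the EC library held marrow endothelial cells. The labels do not say how many mice were pooled. A tamoxifen treatment and an injected antibody to VE-cadherin, the protein of Cdh5, are given in a protocol text whose sample numbering does not settle which of these libraries had them. Whether Cdh5 protein was used to choose the EC cells is therefore not known here, and a Cdh5 difference between the libraries and such a choice cannot be told apart.

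Endothelial cells are held together by adherens junctions, built on VE-cadherin, and by tight junctions, built on claudins, occludin and JAM proteins that scaffolds such as ZO-1 tie to the actin skeleton. Bone marrow has arteries and wide, leaky sinusoids, and blood cells cross the sinusoid wall to enter the circulation. Several of these proteins are not limited to endothelium: PECAM-1, JAM-A and ESAM are also known on platelets, and JAM-C binds JAM-B on neighbouring cells.

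The LepR_tdT library held 4250 cells with a median of 4347 UMIs and the EC library 4536 cells with a median of 3084.5 UMIs, and 42 barcodes occurred in both libraries. The cells were sorted into classes by RNA without using the 10 genes or 55 other junction genes, so the classes do not rest on them. In the EC library 3684 cells were endothelial-like, of which 3433 were sinusoidal-like and 251 arterial-like. In the LepR_tdT library 2927 cells were stromal-like, 257 osteolineage-like, 262 formed a cluster led by Hsd11b1, Kit and Cxcl5 that keeps no name, 59 were endothelial-like and 17 were pericyte and smooth muscle-like. The endothelial marker list, with Plvap, Kdr and Egfl7 leading, summed to 8305 UMIs per 1000000 (CPM) in endothelial-like cells of EC, 7768 CPM in those of LepR_tdT and 158 CPM in stromal-like cells. A shallow cluster in each library, with 723 EC cells and 648 LepR_tdT cells, was led by mitochondrial genes and stayed unnamed. Free RNA, the RNA of barcodes with 1 to 50 UMIs that the authors did not keep as cells, gave 2787370 UMIs in EC and 2717272 in LepR_tdT. The doublet caller marked 1 cell of LepR_tdT and 0 of EC, far under the rate of 3% it was set to expect. Whether it missed doublets was not tested, and doublets were not removed. Intervals below are 95% intervals for counting error alone and say nothing of variation between mice.

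Stretches before a RefSeq start of 3 of the 10 genes are shown because these genes differ in how sharply they separate the cell classes: Cldn5 and F11r, which were high in endothelial-like cells and at 5.36 UMIs per 1000000 or less in stromal-like cells, and Tjp1, which differed less. RefSeq (GRCm38.p6) windows were at hand for 5 of the 10 genes. Each line is the 250 bases upstream of the RefSeq start, read 5′ to 3′ on the gene's strand, with capitals marking the GC box GGGCGG and the core CGGAAG of ETS-family binding sites on either strand.
Cldn5, chr16:18776597-18776846, plus strand: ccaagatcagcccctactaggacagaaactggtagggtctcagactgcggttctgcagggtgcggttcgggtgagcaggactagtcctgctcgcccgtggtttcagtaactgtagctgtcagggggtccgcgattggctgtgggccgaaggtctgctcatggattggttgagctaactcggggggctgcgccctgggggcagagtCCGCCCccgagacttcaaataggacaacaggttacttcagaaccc
F11r, chr1:171437311-171437560, plus strand: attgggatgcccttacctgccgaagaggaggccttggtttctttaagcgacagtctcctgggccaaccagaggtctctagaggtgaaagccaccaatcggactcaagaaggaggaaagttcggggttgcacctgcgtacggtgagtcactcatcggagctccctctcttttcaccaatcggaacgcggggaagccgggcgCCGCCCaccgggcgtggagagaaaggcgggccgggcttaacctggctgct
Tjp1, chr7:65371245-65371494, minus strand: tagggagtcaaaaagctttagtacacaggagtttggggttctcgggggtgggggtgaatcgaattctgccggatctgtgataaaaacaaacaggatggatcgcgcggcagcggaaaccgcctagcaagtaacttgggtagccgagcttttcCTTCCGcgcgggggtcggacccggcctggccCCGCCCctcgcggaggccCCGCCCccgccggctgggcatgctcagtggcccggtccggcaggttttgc
Cldn5 and F11r each held 1 GC box and no CGGAAG, whereas Tjp1 held 2 GC boxes and 1 CGGAAG. Cgnl1, whose window is not printed and which differed least of these between the classes, held 2 GC boxes and no CGGAAG. Across 32851 such windows 32.74% held the GC box and 13.59% held CGGAAG. None of the 3 held TATAAA, which 12.37% of all windows held. The guanine and cytosine content was 59.6% for Cldn5, 60.0% for F11r and 63.2% for Tjp1, beside a median of 52.4% over all windows. A match is a run of letters and not a site. The Tjp1 window lies before a start inside the longer span of the gene given below, and not at the end of that span.

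The first question was which of the 10 genes set the endothelial cells of one library apart from the stroma of the other. 8 of the 9 measured genes were higher in endothelial-like cells of EC than in stromal-like cells of LepR_tdT, and Jam3 alone was higher in stromal-like cells. Higher means a fold of 2 or more whose counting interval leaves out no difference, and a gene was measured when both classes together held 20 UMIs of it. Among all 12847 genes measured, 17.6% were higher in endothelial-like and 21.2% among stromal-like cells. The median log2 ratio was 6.66 over the 9 genes, 0.80 over 45 measured genes of a wider junction list and -0.10 over all genes. With 1 library a side, this compares 2 libraries as well as 2 cell types.

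Cdh5 (chromosome 8, 104101625 to 104144511, plus strand, GRCm38) encodes VE-cadherin, the adhesion protein of endothelial adherens junctions. Its level was 838 CPM (822 to 854) in endothelial-like cells of EC and 1.22 CPM (0.708 to 1.95) in stromal-like cells, a fold of 689 (430 to 1184). A UMI of Cdh5 was seen in 90.3% of these endothelial-like cells and in 0.444% of stromal-like cells. The predicted gene Gm29682 overlaps Cdh5 on the opposite strand, and whether the counting used strand is not given in the sources used here.

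Pecam1 (chromosome 11, 106654217 to 106750628, minus strand) encodes PECAM-1 or CD31, which sits at endothelial contacts and helps leukocytes to cross. It lay at 370 CPM (359 to 380) against 3.65 CPM (2.72 to 4.79), a fold of 101 (76.9 to 136). The share of cells with a UMI was 66.7% in endothelial-like and 1.57% among stromal-like cells.

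Cldn5 (chromosome 16, 18776847 to 18778262, plus strand) encodes claudin-5, the strand protein of endothelial tight junctions. It reached 2619 CPM (2591 to 2647) in endothelial-like and 5.36 CPM (4.22 to 6.72) among stromal-like cells, a fold of 488 (389 to 621). 97.9% of endothelial-like cells had a UMI of Cldn5, against 1.33% of stromal-like cells.

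Ocln (chromosome 13, 100496507 to 100552718, minus strand) encodes occludin, the other classical tight junction membrane protein. All 3 of its UMIs lay in stromal-like cells, and 0 UMIs were found in 3684 endothelial-like cells of EC. A count of 0 among their 12841384 UMIs allows up to 0.234 CPM by a floor of 3 UMIs, and its exact interval ends at 0.287 CPM. Free RNA held 2 UMIs of Ocln in EC and 1 in LepR_tdT. Ocln thus had no level in any class that could be told from 0 at this depth.

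F11r (chromosome 1, 171437535 to 171464603, plus strand) encodes JAM-A, and its level was 231 CPM (223 to 240) in endothelial-like against 0.786 CPM (0.393 to 1.41) in stromal-like cells. The fold was 294 (164 to 590). Esam (chromosome 9, 37528078 to 37538319, plus strand), which encodes a JAM-related adhesion molecule of endothelium, lay at 652 CPM (638 to 666) against 1.07 CPM (0.600 to 1.77), a fold of 608 (368 to 1087).

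Jam2 (chromosome 16, 84774123 to 84825928, plus strand) encodes JAM-B. Its level was 17.5 CPM (15.3 to 20.0) in endothelial-like and 7.01 CPM (5.69 to 8.54) among stromal-like cells, a fold of 2.50 (1.96 to 3.20). Most of the endothelial UMIs came from a small class: 162 of 225, or 72%, lay in the 251 arterial-like cells.

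Jam3 (chromosome 9, 27097384 to 27155421, minus strand) encodes JAM-C, the partner of JAM-B. It ran the other way, with 51.2 CPM (47.5 to 55.1) in stromal-like and 13.1 CPM (11.2 to 15.2) among endothelial-like cells, 3.91-fold (3.30 to 4.66) higher in the stroma. A Jam3 UMI was seen in 21.5% of stromal-like cells, whose median depth was 4636 UMIs. The share was 4.29% in endothelial-like cells of EC, with a median depth of 3402 UMIs. After each cell was thinned to 1000 UMIs, which left out 11 stromal-like and 78 endothelial-like cells, the shares were 5.28% and 1.53%. In granulocyte-like cells of the LepR_tdT library, which at a median of 9280 UMIs were deeper, 1 of 24 cells (4.17%) had a Jam3 UMI.

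The scaffolds differed less between the classes. Tjp1 (chromosome 7, 65296165 to 65527781, minus strand), which encodes ZO-1, lay at 140 CPM (133 to 146) in endothelial-like and 11.7 CPM (9.93 to 13.6) among stromal-like cells, a fold of 12.0 (10.2 to 14.2). Cgnl1 (chromosome 9, 71626509 to 71771602, minus strand), which encodes the cingulin-like protein paracingulin, lay at 49.1 CPM (45.4 to 53.1) against 8.94 CPM (7.44 to 10.6), a fold of 5.50 (4.53 to 6.72). The stromal-like share of cells with a UMI was 5.47% for Tjp1 and 4.00% for Cgnl1. Granulocyte-like cells of the same library gave 12.5% (3 of 24 cells) and 4.17% (1 of 24 cells). Those 24 cells were deeper, and after thinning to 1000 UMIs the Tjp1 shares were 1.41% of stromal-like and 12.5% of granulocyte-like cells. For Cgnl1 they were 0.857% and 0 of 24 cells, with an exact interval up to 14.2%. The interval of the granulocyte-like Tjp1 share, from 3 of 24 cells, took in the stromal-like share at full depth. After thinning it lay above the stromal-like share. By level, Tjp1 was at 11.7 CPM in stromal-like and 10.6 CPM in granulocyte-like cells of this library. The stromal-like share of Cgnl1 could not be told from the granulocyte-like one. Levels of both genes relative to free RNA are given below.

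**Figure D1:**
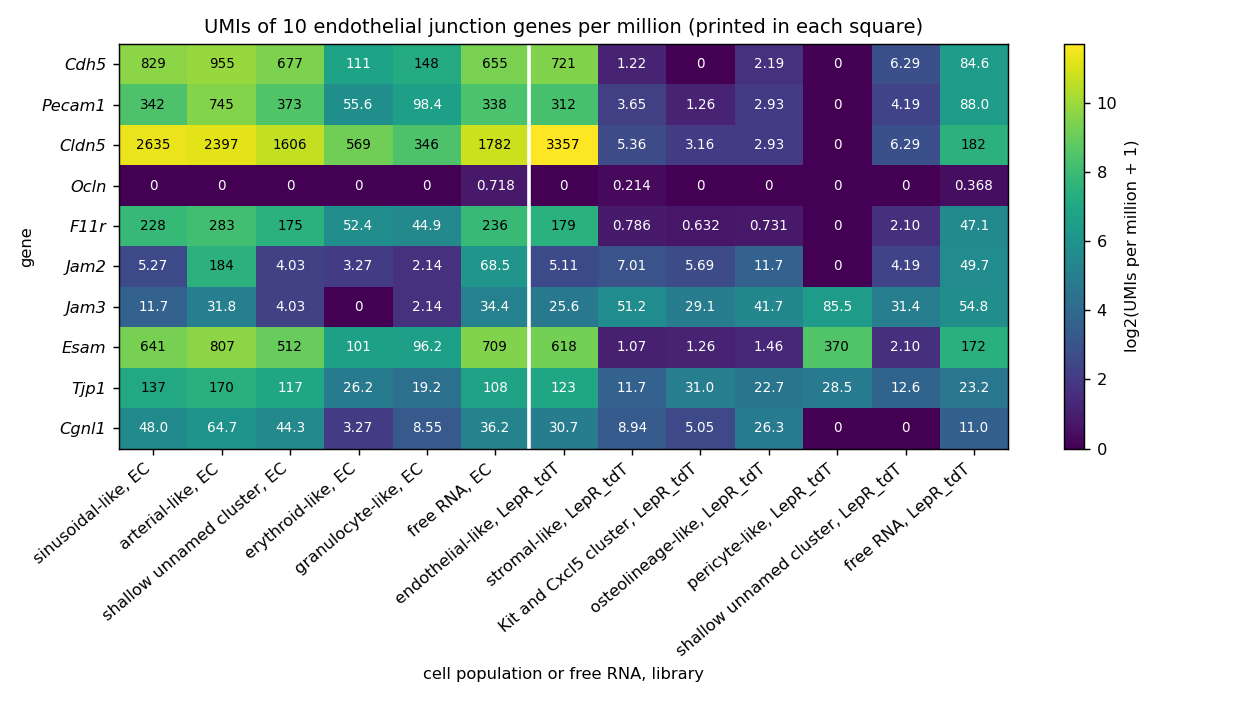
UMIs per 1000000 of the 10 genes (rows) in cell populations and free RNA (columns) of the EC library, left of the white line, and the LepR_tdT library, right of it; colour gives log2(UMIs per 1000000 + 1). Cdh5, Pecam1, Cldn5, F11r and Esam are high in all endothelial-like columns and low in stromal-like cells, Jam2 stands out in arterial-like cells at 184, and Jam3 is at 51.2 in stromal-like and 11.7 among sinusoidal-like cells.

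Free RNA of the EC library carried the endothelial genes, and UMIs of them were also counted in blood cells of that library. Whether those UMIs came from free RNA, from doublets or from the blood cells themselves was not tested. Cldn5 UMIs were seen in 45.2% of 84 erythroid-like cells and in 58.1% of 43 granulocyte-like cells, whose median depths were 843 and 9792 UMIs. Thinned to 1000 UMIs the shares were 39.5% and 26.2%, against 88.5% in endothelial-like cells. For Cdh5 the thinned shares were 15.8% in erythroid-like, 26.2% in granulocyte-like and 56.6% in endothelial-like cells. The endothelial-like shares thus lay above those of both blood cell types. Thinned shares of endothelial-like cells were 47.0% for Esam, 31.0% for Pecam1, 21.9% for F11r, 13.2% for Tjp1 and 5.10% for Cgnl1. The granulocyte-like shares were 16.7% for Esam, 26.2% for Pecam1, 7.14% for F11r and 7.14% for Tjp1, and 0 of 42 cells had a UMI of Cgnl1. The granulocyte-like intervals took in the endothelial-like share for Pecam1 (13.9 to 42.0%), Tjp1 (up to 19.5%) and Cgnl1 (up to 8.41%).

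The genes were often counted in the same cell. At least 3 of the 10 had a UMI in 94.4% of endothelial-like cells of EC, in 39.5% of granulocyte-like and 11.9% of erythroid-like cells of that library, and in 0.512% of stromal-like cells. After thinning these shares were 54.9%, 19.0%, 7.89% and 0.0343%. At least 5 had a UMI in 67.3% of arterial-like cells and 51.5% of sinusoidal-like ones, or 11.8% and 5.03% after thinning.

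Within the LepR_tdT library alone, the contrast can be read without crossing libraries, though on 59 endothelial-like cells and 195684 UMIs. There 7 of the 9 measured genes were higher in endothelial-like than in stromal-like cells, and Jam2 and Jam3 were not among them. Of 11686 genes measured, 8.90% were higher in endothelial-like cells. The median log2 ratio was 6.42 over the 9 genes, 0.65 over 40 wider junction genes and 0.38 over all genes.

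The levels in these 59 cells were 721 CPM (607 to 850) for Cdh5, 312 CPM (238 to 400) for Pecam1, 3357 CPM (3106 to 3624) for Cldn5, 179 CPM (125 to 249) for F11r and 618 CPM (513 to 739) for Esam. Against stromal-like cells the folds were 593 (357 to 1046) for Cdh5, 626 (492 to 806) for Cldn5, 577 (336 to 1062) for Esam and 227 (113 to 496) for F11r. Tjp1 lay at 123 CPM (78.6 to 182), and Cgnl1 at 30.7 CPM (11.3 to 66.7) from 6 UMIs. Jam3 lay at 25.6 CPM (8.30 to 59.6) from 5 UMIs, and its interval took in the stromal-like level. Jam2 had 1 UMI. The 59 cells also held the stromal marker list at 3153 CPM, against 423 CPM in endothelial-like cells of EC, 58845 CPM in stromal-like cells and 39465 CPM in free RNA of their own library. The part of that RNA in these values was not tested.

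In stromal-like cells most of the endothelial genes lay far below free RNA. Esam was at 172 CPM in free RNA of LepR_tdT, so that the stromal-like level was 0.623% of it. The same percentage was 1.44% for Cdh5, 1.67% for F11r, 2.95% for Cldn5 and 4.15% for Pecam1. Marker lists of blood cells, whose RNA stromal cells should lack, reached 0.251% (B cell), 0.991% (granulocyte), 1.89% (megakaryocyte) and 7.44% (erythroid) of free RNA in the same cells. All 5 genes lay within the range of these 4 lists, between the B cell and the erythroid list.

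Jam2 and Jam3 stood otherwise. Jam2 in stromal-like cells was at 14.1% of its free RNA level (49.7 CPM), above the percentages of the 5 endothelial genes. Its share of stromal-like cells with a UMI was 3.11%, and 0 of 24 granulocyte-like cells had one, which allows up to 14.2% (exact interval), so these shares cannot be told apart. Jam3 was at 93.4% of free RNA (54.8 CPM), Cgnl1 at 80.9% and Tjp1 at 50.3%. A level near that of free RNA does not tell where the free RNA came from.

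**Figure D2:**
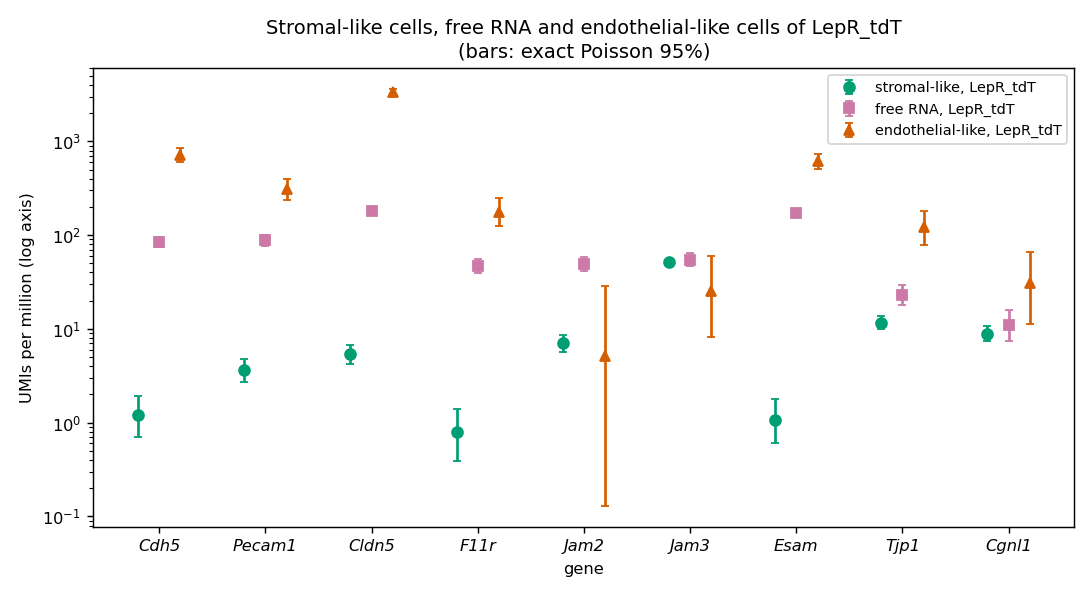
UMIs per 1000000 (log axis) of 9 genes in stromal-like cells, free RNA and endothelial-like cells of the LepR_tdT library, with exact Poisson 95% intervals as bars. Stromal-like levels of Cdh5 (1.22) and Esam (1.07) lie far under free RNA (84.6 and 172), whereas Jam3 in stromal-like cells (51.2) lies beside its free RNA level (54.8).

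The next question was whether the arterial-like and sinusoidal-like classes differ. In the arterial-like cluster 12 of 12 arterial markers were 2-fold or more above the other endothelial-like clusters. Emcn, of the endothelial marker list, was also higher there, at 974 CPM against 555 CPM in sinusoidal-like cells of EC. Whether the arterial-like cells come from arteries alone was not tested. 3 of the 9 measured genes were higher in arterial-like than in sinusoidal-like cells of EC, namely Jam2, Jam3 and Pecam1. None of the 9 was higher in sinusoidal-like cells and 6 met neither call. Of 11100 genes measured, 6.88% were higher in arterial-like and 3.91% among sinusoidal-like cells. The median log2 ratio was 0.33 over the 9 genes, 0.28 over 39 wider junction genes and 0.18 over all genes. The log2 ratios of the 6 other genes ran from -0.14 to 0.43.

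Jam2 showed the clearest difference. Its level was 184 CPM (157 to 215, 162 UMIs) in arterial-like and 5.27 CPM (4.05 to 6.74, 63 UMIs) among sinusoidal-like cells, a fold of 34.9 (25.9 to 47.5). A UMI was seen in 34.3% of 251 arterial-like cells and in 1.60% of sinusoidal-like cells. Thinning to 1000 UMIs left 17.1% and 0.414%. Erythroid-like cells gave 1.19% and granulocyte-like cells 2.33% with 1 UMI each, so the sinusoidal-like share cannot be told from theirs. Free RNA of EC held Jam2 at 68.5 CPM, and the sinusoidal-like level was 7.69% of that, beside 0.483% for the B cell, 2.15% for the granulocyte, 9.95% for the erythroid and 41.9% for the megakaryocyte list in the same cells. The erythroid list was led by Car2 in sinusoidal-like cells but by Hbb-bs in free RNA of EC. Whether the sinusoidal-like cells make Car2 themselves was not tested, so the erythroid percentage may not reflect free RNA alone.

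Jam3 lay at 31.8 CPM (21.1 to 45.9, 28 UMIs) in arterial-like and 11.7 CPM (9.85 to 13.8, 140 UMIs) among sinusoidal-like cells, a fold of 2.72 (1.74 to 4.10). Pecam1 lay at 745 CPM (689 to 804) and 342 CPM (331 to 353), a fold of 2.18 (2.00 to 2.37). The Pecam1 call rests on how the classes are scaled: with scaling factors from edgeR (TMM) or from the median ratio, which move all log2 ratios by -0.20 and -0.19, its log2 ratio of 1.12 became 0.93 and 0.94 and no longer reached the fold of 2.

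The 6 other genes were closer to even. Cdh5 was at 955 CPM in arterial-like and 829 CPM among sinusoidal-like cells, Cldn5 at 2397 and 2635 CPM, and Esam at 807 and 641 CPM. F11r was at 283 and 228 CPM, Tjp1 at 170 and 137 CPM, and Cgnl1 at 64.7 and 48.0 CPM. Their folds ran from 1.10 for Cldn5, the one gene of these that was higher in sinusoidal-like cells, to 1.35 for Cgnl1. Under TMM scaling the log2 ratio of Cdh5 was 0.01 and that of Cldn5 -0.33.

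In the wider junction list 4 of 39 measured genes were higher in arterial-like and 3 among sinusoidal-like cells, beside 6.88% and 3.91% of all genes. Under TMM or median-ratio scaling the counts of the wider list were 3 and 6. The shares of all genes under those scalings were not computed, so these 2 counts have no share to be read against. Cdh13, which encodes T-cadherin, was at 0.836 CPM in sinusoidal-like and 56.8 CPM among arterial-like cells. Heg1, a receptor needed for vessel integrity, was at 95.6 and 313 CPM. Icam2, a leukocyte ligand at endothelial contacts, was at 252 CPM in sinusoidal-like and 547 CPM among arterial-like cells. Its log2 ratio of 1.12 became 0.92 and 0.93 under those scalings and lost the call. Cxadr, the coxsackievirus and adenovirus receptor of tight junctions, was 8.83-fold (6.34 to 12.7) higher in sinusoidal-like cells, at 351 against 39.7 CPM. Cdh2, or N-cadherin, had 202 UMIs in sinusoidal-like and 0 among arterial-like cells, at least 4.96-fold higher in the former by a floor of 3 UMIs over the class (exact interval from 4.00-fold).

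**Figure D3:**
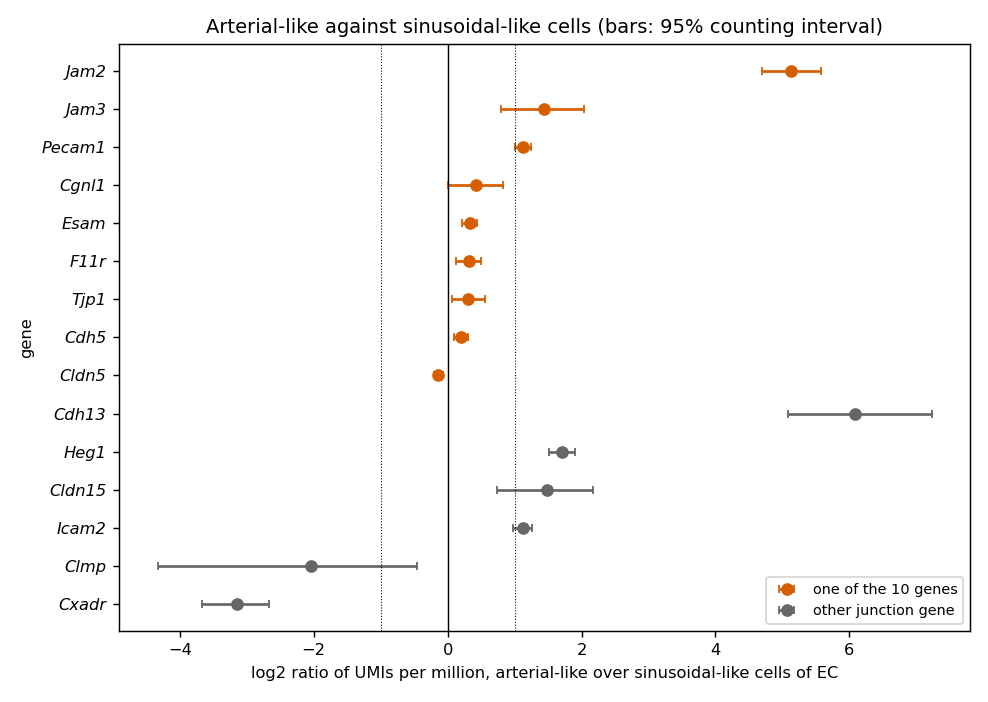
Log2 ratio of UMIs per 1000000, arterial-like over sinusoidal-like cells of EC, for the 9 measured genes (orange) and for 6 other junction genes that passed a fold of 2 (grey), with 95% counting intervals and dotted lines at a fold of 2. Jam2 (5.13), Jam3 (1.44) and Pecam1 (1.12) lie to the right, Cldn5 at -0.14, and Cxadr at -3.14; Cdh2 is not drawn because it had 0 UMIs in arterial-like cells.

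Sinusoidal-like cells came in 2 clusters, of which 1411 EC cells were led by immediate early and stress genes and 2022 were not. The stress list summed to 13268 CPM in these EC cells of the first cluster and 2145 CPM in those of the second. None of the 9 measured junction genes was called different between the clusters in either direction. Among 10955 genes 1.89% were higher and 0.712% lower in the stress-led cluster. The 9 log2 ratios, stress-led over the other, ran from -0.56 for Jam2 to -0.05 for Cldn5, beside a median of -0.06 over all genes. Cdh5 was at 773 and 877 CPM, and Esam at 586 and 687 CPM.

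Among stromal types the osteolineage-like cells, which make bone matrix, were compared with the stromal-like cells of the same library. 1 of the 7 measured genes was higher in osteolineage-like cells, and 0 were higher in stromal-like cells. Of 11761 genes measured, 4.92% were higher in osteolineage-like and 5.82% in stromal-like cells. The median log2 ratio was 0.74 over the 7 genes, -0.21 over 37 wider junction genes and -0.06 over all genes.

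That gene was Cgnl1, at 26.3 CPM (18.4 to 36.4, 36 UMIs) in osteolineage-like and 8.94 CPM among stromal-like cells, a fold of 2.95 (1.97 to 4.30). A UMI was seen in 12.8% of 257 osteolineage-like cells, whose median depth was 4957 UMIs. This lay within the interval of granulocyte-like cells (0.105 to 21.1%), a wide one from 24 deeper cells with a median of 9280 UMIs. By level, Cgnl1 was at 3.55 CPM in those granulocyte-like cells. Thinning left 2.76% against 0.857% of stromal-like cells. Tjp1 lay at 22.7 CPM (15.4 to 32.2) against 11.7 CPM, a fold of 1.95 (1.28 to 2.87) that fell short of the call. Jam3 was at 41.7 CPM (31.6 to 54.0), 1.23-fold (interval from 1.07-fold higher to 1.64-fold lower) under the stromal-like level. Jam2 was at 11.7 CPM (6.69 to 19.0), and its interval took in the stromal-like level. Cdh5, Pecam1 and Cldn5 had 3, 4 and 4 UMIs. Hemoglobin and other erythroid markers summed to 2947 CPM in osteolineage-like cells against 193 CPM in the stromal-like class, and their part in these values was not tested. The endothelial marker list was lower in osteolineage-like cells, at 91.4 against 158 CPM.

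The unnamed cluster of 262 cells led by Hsd11b1, Kit and Cxcl5 was compared with stromal-like cells after the clusters had been seen. Tjp1 was higher there, at 31.0 CPM (22.9 to 40.9, 49 UMIs) against 11.7 CPM, a fold of 2.66 (1.89 to 3.68). It was the only call among the 6 measured genes. Across 11743 genes 3.12% were higher and 3.63% lower in this cluster. Jam3 was lower in value, at 29.1 CPM (21.3 to 38.8), 1.76-fold (1.31 to 2.43) under the stromal-like level and short of the call. Cdh5 had 0 UMIs, which allows up to 1.90 CPM by the floor of 3 UMIs, with an exact interval up to 2.33 CPM. The share of cells with a Tjp1 UMI was 17.2% (12.8 to 22.3%), beside the 12.5% in granulocyte-like cells given above, whose interval (2.66 to 32.4%) takes it in.

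The 17 pericyte and smooth muscle-like cells, led by Acta2, Rgs5 and Tagln, held Esam and Jam3 of the JAM family and 0 UMIs of F11r and Jam2. Esam lay at 370 CPM (242 to 543, 26 UMIs) and was seen in 12 of the 17 cells, with at most 4 UMIs in a cell. Stromal-like cells had 1.07 CPM, a fold of 345 (176 to 702). Cdh5, Pecam1, Cldn5, F11r, Jam2 and Cgnl1 had 0 UMIs of 70185, which allows up to 42.7 CPM each by the floor of 3 UMIs, with an exact interval up to 52.6 CPM. Free RNA of this library held Esam at 172 CPM beside Cldn5 at 182 CPM, and Cldn5 was at 0 in these cells. Of the 14 endothelial markers 6 were seen in the 17 cells, at 342 CPM together, and their part in the Esam value was not tested. Jam3 was at 85.5 CPM (31.4 to 186) from 6 UMIs. Esam was the only call of 7 measured genes in this comparison, which was likewise chosen once the clusters were known. Of 11624 genes 5.80% were higher and 3.73% lower in these cells.

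**Figure D4:**
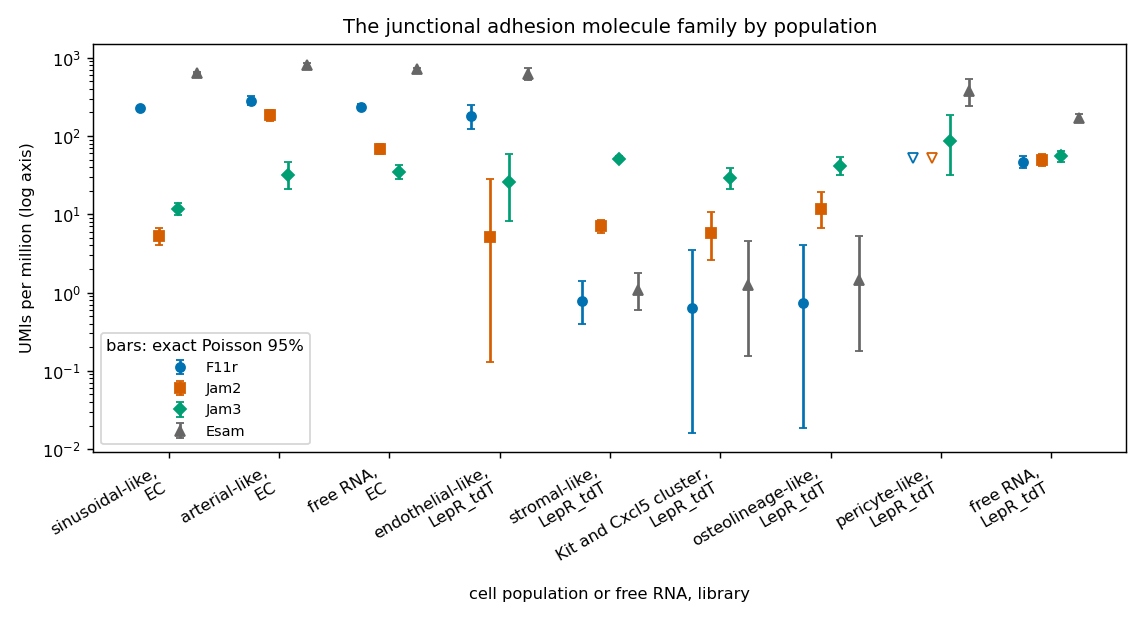
UMIs per 1000000 (log axis) of F11r, Jam2, Jam3 and Esam in populations of both libraries and in free RNA, with exact Poisson 95% intervals as bars; an open triangle marks the upper end of the interval where the count was 0. F11r and Esam fall from endothelial-like to stromal-like cells, Jam2 peaks in arterial-like cells (184), Jam3 is similar in stromal-like (51.2) and osteolineage-like cells (41.7), and Esam is at 370 in pericyte-like cells.

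Put in order, the Jam3 levels were 85.5 CPM in pericyte-like, 51.2 in stromal-like, 41.7 in osteolineage-like, 31.8 in arterial-like, 29.1 in the cluster led by Hsd11b1, Kit and Cxcl5, 25.6 in endothelial-like cells of LepR_tdT and 11.7 CPM in sinusoidal-like cells of EC. Neighbours in this order had overlapping intervals, so the order between neighbours is not resolved here. The sinusoidal-like interval lay below that of each class but endothelial-like cells of LepR_tdT. For Jam2 the order was 184 CPM in arterial-like, 11.7 in osteolineage-like, 7.01 in stromal-like, 5.69 in the cluster led by Hsd11b1, Kit and Cxcl5, and 5.27 CPM in sinusoidal-like cells, and the arterial-like interval alone lay clear of its neighbour.

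The wider list of 55 junction genes, set beside the 10, split between the endothelial and stromal classes. In endothelial-like cells of EC 20 of its 45 measured genes were higher, and 9 were higher in stromal-like cells. Over all 12847 genes measured the shares were 17.6% and 21.2%, so the stromal-like count lay near the share over all genes. Rasip1, a regulator of endothelial junctions and lumen formation, was at 290 against 0.357 CPM, and Ptprb, the phosphatase VE-PTP that acts on VE-cadherin, at 503 against 0.786 CPM. Magi1 was at 58.1 against 3.22 CPM and Cxadr at 330 against 0.715 CPM. The scaffold gene Jcad was at 39.4 against 6.65 CPM. Plekha7, of epithelial adherens junctions, had 74 UMIs in endothelial-like and 0 among stromal-like cells, at least 26.9-fold higher by the floor of 3 UMIs over the class (exact interval from 21.3-fold).

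Stromal-like cells held other family members. Cdh11, a mesenchymal cadherin, was at 579 CPM in stromal-like and 0.623 CPM among endothelial-like cells, Cdh2 at 263 and 15.7 CPM, and Cldn10 at 728 and 0.156 CPM. Cldn1 had 351 UMIs in stromal-like and 0 among endothelial-like cells, at least 107-fold higher by the same floor (exact interval from 86.9-fold). Icam2 was at 272 CPM in endothelial-like and 1.93 CPM among stromal-like cells.

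The levels of 5 of the genes also moved together over the 10 clusters of at least 50 cells, as a description with no test, since these points share 2 libraries and their free RNA. Pearson's r of log2(CPM + 1) was 0.999 for F11r with Esam, 0.995 for Cldn5 with Esam and 0.990 for Cdh5 with Pecam1. Tjp1 followed less closely, with r = 0.795 against Cdh5, and Jam3 had r = -0.552 against Cdh5. Among 9794 genes with at least 200 UMIs, those most like Jam2 were Fbln2 (r = 0.948), Vwa1 (0.929) and Ccdc47 (0.896), and those most like Jam3 were Ypel3 (0.987), Ifi27 (0.978) and Nabp2 (0.972). Cdh5 was most like Cd38, Plvap and Ctla2a, Cldn5 like Kdr, Tek and Fcgr2b, and Pecam1 like Ppp1r16b, Tnfsf10 and Myct1. Esam was most like F11r, Pcdh12 and Csf2rb2, F11r like Esam, Plvap and Cldn5, Tjp1 like Arhgap29, Gm10638 and Il4ra, and Cgnl1 like Wipf2, Cenpb and Snx13.

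The shallow EC cluster, with a median of 568 UMIs per cell, also held the genes. Pecam1 was at 373 CPM (321 to 431), an interval that took in the endothelial-like level of 370 CPM. Cdh5 at 677 CPM (607 to 753), Cldn5 at 1606 CPM (1496 to 1722) and Esam at 512 CPM (451 to 579) lay under their endothelial-like levels of 838, 2619 and 652 CPM. Jam2 and Jam3 had 2 UMIs each. The same cluster held the platelet gene Pf4 at 564 CPM, against 37.6 CPM in endothelial-like cells, and the megakaryocyte list at 1203 CPM. The part of platelet RNA in its Pecam1 and Esam counts was not tested. The shallow LepR_tdT cluster held Jam3 at 31.4 CPM and each of the other 9 genes at 12.6 CPM or less.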

How the data were processed

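Droplet single-cell RNA was measured in 2 libraries, LepR_tdT and EC. The authors deposited raw UMI counts for every barcode, empty droplets included, and a table of the cells they kept, with library, UMI count and gene count. Recomputed UMI and gene numbers equalled the table for all 4250 and 4536 cells. The processing tools, per the submitters' processing notes, were Cell Ranger 2.1.1 and Seurat 2.3.4, with the build mm10; their roles are not given in the sources used here. Of all UMIs, 82.5% (LepR_tdT) and 77.7% (EC) lay in cells, and the smallest cell had 201 genes.

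The 10 genes, the wider lists and the comparisons were chosen with earlier results of these data known. Cells were clustered with scanpy 1.11.5 on 1578 of the 2000 most variable genes (30 components, 15 neighbours, Leiden resolution 0.5, best of 20 seeds), with mitochondrial genes and the junction genes left out. A class name needed 3 markers at 1.5-fold or more. UMIs were summed per class and given per 1000000 (CPM). Sums carry exact Poisson, ratios conditional exact binomial and shares exact Clopper-Pearson 95% intervals, for counting error only. With 1 library per group no p-value was computed. A fold against 0 uses a floor of 3 UMIs over the class. The call rule was tested on simulated data.

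All 10 genes were named. From each of the 4 groups of the wider list the 3 with the largest ratio between endothelial-like and stromal-like cells were named, except 1 that is not reported here, and for each of the 10 genes with 200 UMIs the 3 genes most like it; of the marker lists used to name classes, those with most UMIs. The wider genes named between arterial-like and sinusoidal-like cells and Pf4 were chosen after their values were seen. Of 27999 gene identifiers 27645 were found in GENCODE M21 on GRCm38, which gave positions. Alternatives were other scaling (edgeR 4.0.16), filters, clusterings, thinning, free RNA subtraction and cells left out.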

Additional observations from a re-analysis of the deposited data

Results flagged for a closer look

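Free RNA was not itself one of the compared classes. The reported class sums were not corrected for free RNA, which was subtracted at 10% only in an alternative. Some of the 10 genes lay at least 2-fold higher in free RNA than over all cells of the same library. The share of all genes that did so was not computed. In LepR_tdT the granulocyte list did so too (6200 and 1397 CPM), as did the B cell list (256 and 4.96 CPM). The erythroid list did not, at 2596 and 1628 CPM. In LepR_tdT, Cdh5 was at 84.6 CPM in free RNA and 9.48 CPM over all cells, Pecam1 at 88.0 and 7.44 CPM, and Cldn5 at 182 and 43.0 CPM. F11r was at 47.1 and 3.80 CPM, Jam2 at 49.7 and 7.06 CPM, and Esam at 172 and 10.2 CPM. The same free RNA held the endothelial marker list at 1381 CPM and the megakaryocyte list at 1943 CPM, with Pf4 at 789 CPM. In EC, Jam2 was at 68.5 CPM in free RNA and 16.2 CPM over all cells, and Jam3 at 34.4 and 12.2 CPM. The stromal marker list was at 2158 CPM in that free RNA. The part of platelets, vessel cells or stroma that were not kept as cells was not tested.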

How the results depend on the processing

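Over 14 alternatives, 450 recomputed ratios of single genes were compared with the reported ones, and 444 kept their call and 0 of the called ones changed sign. The 34 ratios of the alternative that asked for 1 UMI used the same sums and could not change their call. Leaving out called doublets dropped at most 1 cell. Ratios that fell under 20 UMIs in an alternative are not among the 450. Thinning thus gave 30 ratios and free RNA subtraction 31, against 34 under TMM scaling. Planned and added alternatives left 8 of the 10 genes higher in endothelial-like cells of EC and 0 of them higher in sinusoidal-like cells wherever they could be run. Within LepR_tdT the 7 genes became 5 after thinning to 1000 UMIs, where Cgnl1 lost its call at a log2 ratio of 2.01, against 1.78 as reported, and F11r fell under the 20 UMIs asked for. The 3 genes higher in arterial-like cells became 2 under TMM and median-ratio scaling, without Pecam1. Of the wider list, the 4 arterial-like and 3 sinusoidal-like calls became 3 and 6 under the same scalings, an alternative added after seeing the data. The shares of all genes under these scalings were not computed. The single gene higher in osteolineage-like cells became 3 when free RNA was subtracted at 10%, with Jam2 (log2 1.67) and Tjp1 (1.13) added, and 2 when cells with a megakaryocyte marker were left out, with Tjp1 added at 1.08; the cause was not tested. That last alternative was chosen after seeing the data, as were leaving out 140 stromal-like cells with 3 or more endothelial marker UMIs, barcodes found in both libraries, or cells under 1000 UMIs. No paired analysis was possible because each group has 1 library. Depth limits Jam2, Jam3 and Cgnl1 in endothelial-like cells of LepR_tdT, which rest on 1, 5 and 6 UMIs.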
